A study of Homo sapiens with 4 samples.

Results

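The genes described here are the mRNA decay machinery of PC3, an established cell line from a human prostate cancer. They are the protein-coding rows of the gene count table whose symbol belongs to the CNOT, EXOSC, DCP, XRN, SMG, UPF, EDC3 and EDC4, LSM, PAN2 and PAN3 or PARN families. The rule used names alone and found 54 of the 60544 rows, and all 54 passed the filter on low counts that left 16802 genes for testing. Poly(A) RNA was sequenced from 2 libraries labelled shNC, the control short hairpin RNA, and 2 labelled sh812. The series compares METTL3 knockdown with control, and sh812, the label besides shNC, was taken to be the knockdown. Both arms are the same cell line in serum-containing medium. How the hairpins were delivered, whether the cells were a pool or a clone, and whether the replicates were separate cultures are not given in the sources used here, so p-values measure the spread between these libraries, which may be technical.

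Messenger RNA decay usually starts at the poly(A) tail. PAN2-PAN3 and the CCR4-NOT complex shorten the tail, the LSM1 to LSM7 ring binds the shortened end, DCP2 with its activators removes the 5′ cap, and XRN1 digests the body from the 5′ end, while the RNA exosome digests it from the 3′ end. Nonsense-mediated decay, run by UPF1, UPF2, the UPF3 proteins and the SMG proteins, removes transcripts with a premature stop codon. METTL3 is the catalytic subunit of the enzyme that writes N6-methyladenosine (m6A) on mRNA, and m6A reader proteins are known to bring CCR4-NOT to marked transcripts.

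Total gene counts were 31450648 to 37041330 per library, and the members' counts ran from 167 to 8242. METTL3 was at 44.3 and 43.6 CPM (counts scaled to a common library size after TMM adjustment) in shNC and at 7.66 and 8.75 CPM in sh812, a log2 fold change of -2.42 (SE 0.11; edgeR adjusted p 5.54e-14). The 5 epithelial markers KRT8, KRT18, KRT19, EPCAM and CDH1 summed to 816 and 921 CPM in shNC and 956 and 1017 CPM in sh812. Of these, EPCAM (log2 fold change 0.45), CDH1 (0.57) and KRT18 (0.30) were called higher in edgeR (adjusted p = 0.000128, 0.00511 and 0.00793). Of 5 markers of prostate luminal cells, KLK2 and KLK3 had no count in any library, and TMPRSS2 was at 10.1 and 9.17 CPM in shNC and 4.73 and 6.82 CPM in sh812. Its log2 fold change was -0.74 (edgeR adjusted p 0.00546), with both sh812 libraries below both shNC libraries. Of 10 markers of blood, endothelial, stromal and muscle cells, CD3E and HBB had no count, and the list summed to 64.0 and 65.5 CPM in shNC and 64.6 and 75.4 CPM in sh812. Within that sum PECAM1, an endothelial marker, rose from 23.8 and 23.7 to 32.9 and 38.5 CPM (log2 fold change 0.59; edgeR adjusted p 0.000222). COL1A1, a collagen gene of stromal cells, was at 37.6 and 39.4 CPM in shNC and 29.3 and 34.5 CPM in sh812 (-0.27; edgeR adjusted p 0.0589). The part of these markers in the results below was not tested.

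In sh812, 8 of the 54 members rose and 1 fell by the quasi-likelihood test of edgeR, where a call is a Benjamini-Hochberg adjusted p under 0.05 over all genes tested. The 8 were the decapping enzyme gene DCP2, the LSM ring genes LSM2, LSM3, LSM5 and LSM7, and the exosome ring genes EXOSC4, EXOSC5 and EXOSC7. The 1 that fell was XRN1, the cytoplasmic 5′-to-3′ exonuclease. The rises were between 14.7% (LSM3) and 30.5% (DCP2), and XRN1 had a change of -21.1%. None of the 11 CCR4-NOT genes, of PAN2, PAN3 and PARN, or of the 10 UPF and SMG genes was called in edgeR, DESeq2 or limma-voom. At an unadjusted p under 0.05 in edgeR, 2 CCR4-NOT genes were higher and 2 lower, 1 of the UPF and SMG genes was higher and 2 lower, and PAN2, PAN3 and PARN gave 0, where 24.8% of all genes passed. Of all genes tested, 10.8% were called, 5.43% as higher and 5.42% as lower, against 16.7% of the members, 14.8% as higher and 1.85% as lower. Both sh812 libraries lay above both shNC libraries in 25 members and below them in 12, which is 46.3% and 22.2%, against 26.2% and 27.4% of all genes tested. The fitted value was above 0 in 32 members (59.3%) and in 49% of all genes tested. The median log2 fold change of the 54 was 0.016, and that of all genes tested was -0.0056.

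The calls depended on the libraries and on the scaling. Without sh812 replicate 1, a fit that assumes its lone sh812 library to vary like the shNC libraries called 0 of the 54, and all 9 kept their sign. Calls over all genes were also fewer in that fit, at 1.46% higher and 1.82% lower. Without sh812 replicate 2, such a fit called 6 of the 9 and no other member, where 1.55% of all genes were called higher and 2.26% lower. Without shNC replicate 1, it called 7 higher (SMG9 and UPF3B with 5 of the 8) and 2 lower (CNOT9 and SMG5), where 5.24% and 5.16% of all genes were called. Without shNC replicate 2, it called all 9, with CNOT11, LSM4, LSM6 and LSM10 also higher and CNOT1, SMG1 and SMG6 also lower, where 9.5% and 8.64% of all genes were called. Scaling by library size alone gave 5 members higher and 4 lower, where 3.34% and 7.9% of all genes were called, and the share of higher calls among all called genes was then 29.7% against 50.1%. DESeq2 called 7 members higher and 0 lower (6.53% and 5.64% of the 12241 genes to which it gave an adjusted p). By limma-voom 8 members were higher and 1 lower (5.81% and 5.54% of all 16802 genes tested).

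**Figure D1:**
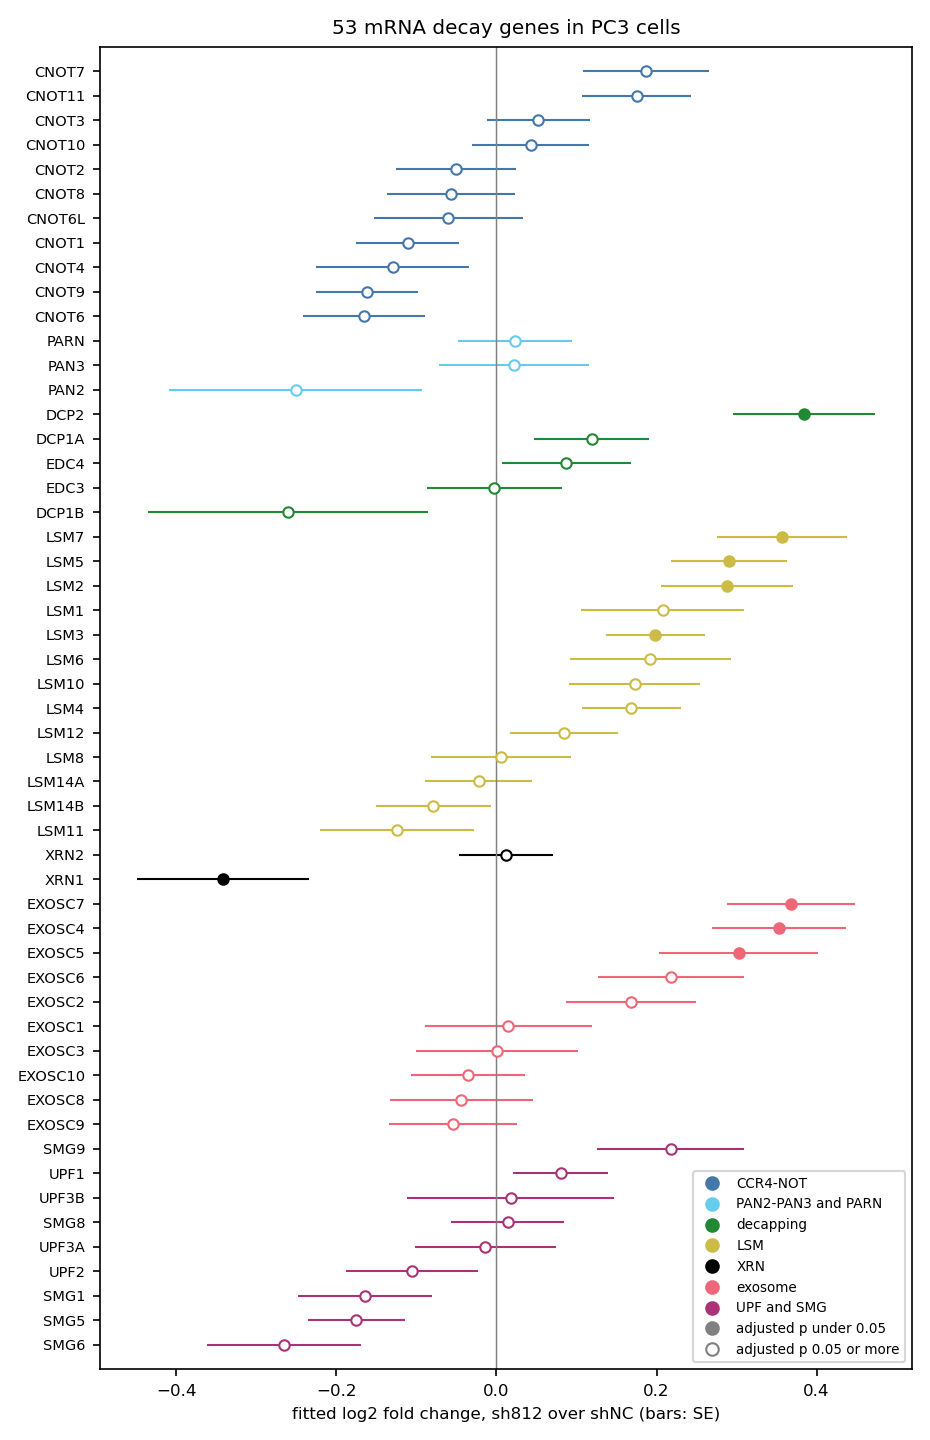
Fitted log2 fold change of 53 of the 54 genes, sh812 over shNC (points, with bars for the SE), grouped by complex, with filled points for genes at an adjusted p under 0.05. The 8 filled points to the right of 0 are DCP2, 4 LSM genes and 3 EXOSC genes, and the filled point to the left is XRN1.

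The sequences upstream of 4 called members are shown to set the largest rise and the 1 fall beside 2 of the ring genes. They come from RefSeq promoter windows on GRCh38.p14, cut to the part of the 250 bases before the start that holds no GENCODE 29 exon. They are DCP2 on the plus strand (chr5:112976548-112976701), and LSM2 (chr6:31806985-31807216), LSM5 (chr7:32495284-32495425) and XRN1 (chr3:142448063-142448287) on the minus strand, written 5′ to 3′ in the gene's direction, with capitals for CCAAT or GGGCGG read on either strand.
DCP2: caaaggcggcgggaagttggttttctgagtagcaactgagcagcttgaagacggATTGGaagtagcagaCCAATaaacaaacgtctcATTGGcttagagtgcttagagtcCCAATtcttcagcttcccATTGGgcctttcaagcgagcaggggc
LSM2: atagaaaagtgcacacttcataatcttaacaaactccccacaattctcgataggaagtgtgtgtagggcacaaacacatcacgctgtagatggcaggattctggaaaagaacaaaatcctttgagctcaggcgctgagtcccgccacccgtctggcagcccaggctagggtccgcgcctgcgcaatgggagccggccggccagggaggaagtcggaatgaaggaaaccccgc
LSM5: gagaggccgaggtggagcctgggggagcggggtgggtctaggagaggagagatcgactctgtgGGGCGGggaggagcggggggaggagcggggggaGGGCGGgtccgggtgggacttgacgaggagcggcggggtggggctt
XRN1: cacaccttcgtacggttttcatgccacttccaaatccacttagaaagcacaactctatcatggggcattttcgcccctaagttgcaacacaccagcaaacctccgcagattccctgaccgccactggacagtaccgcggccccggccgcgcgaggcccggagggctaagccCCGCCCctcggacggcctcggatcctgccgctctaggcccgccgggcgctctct
The printed stretch of DCP2, the largest rise among the members, held 5 CCAAT pentamers, and that of LSM2 held neither motif. Of all 35116 windows of 250 bases, 0.319% held 5 or more, a count made after the 5 in DCP2 were seen, and among the members DCP2 was 1 window of 63 (45 of the 54 genes were matched), followed by CNOT3 with 4. CCAAT on either strand was in 33.3% of the member windows and 32% of all windows. GGGCGG, the GC box, was in 69.8% of the member windows and 42.6% of all windows, and all 4 genes shown had it in the full 250 bases. For every motif, all windows were taken without a filter on expression, whereas all 54 members had passed the filter on low counts. A comparison with expressed genes alone was not made. CCGGAAG, the core bound by ETS factors, was in 9.52% and 8.52%, and the NRF1 palindrome in 1.59% and 1.03%, with LSM7 the member that held it. Of the 9 motifs searched on both strands, the others were a shorter form of the NRF1 palindrome, which lies within it (3.17% and 2.63%), the E-box CACGTG (9.52% and 6.34%), the CRE (3.17% and 1.65%), the YY1 motif (0 and 0.248%) and the TATA box TATAAA (1.59% and 10.7%). A match describes letters, not binding.

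The deadenylases came first in the order of the pathway. CNOT1, the scaffold on which CCR4-NOT is built, was at 217 and 191 CPM in shNC and 190.4 and 187.9 CPM in sh812. Both sh812 libraries were below both shNC libraries, by a margin smaller than the gap between the shNC libraries, and the log2 fold change was -0.11 (SE 0.06; edgeR adjusted p 0.299). Without shNC replicate 2 it was -0.19, and without shNC replicate 1 it was -0.015. With the length and GC trends described below removed, it was -0.022 (edgeR adjusted p 0.854). CNOT7, one of the paired catalytic subunits of the Caf1 type, was at 44.8 and 46.9 CPM in shNC and 54.2 and 50.1 CPM in sh812. The groups did not overlap, and its log2 fold change of 0.19 (SE 0.08) had an adjusted p of 0.135 in edgeR. CNOT6, a catalytic subunit of the Ccr4 type, and CNOT9, which binds recruiting proteins, had the 2 lowest log2 fold changes of the complex, at -0.17 and -0.16 (adjusted p = 0.174 and 0.107 in edgeR). CNOT11, a subunit of the N-terminal module of CNOT1, was on the other side at 0.18 (adjusted p = 0.0998 in edgeR). The other 6, CNOT2, CNOT3, CNOT4, CNOT6L, CNOT8 and CNOT10, lay between -0.13 and 0.05. The median of the 11 was -0.057, with 4 fitted above 0 and 7 below.

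PAN2, the catalytic subunit of PAN2-PAN3, was at 10.6 and 8.28 CPM in shNC and 8.95 and 6.96 CPM in sh812. The groups overlapped, and the log2 fold change was -0.25 (SE 0.16; edgeR adjusted p 0.347). PARN, a deadenylase that also trims noncoding RNAs, was at 61.6 and 61.2 CPM in shNC and 62.5 and 62.3 CPM in sh812. The difference between the groups was 0.02 on the log2 scale (SE 0.07; edgeR adjusted p 0.891). PAN3, the adaptor of PAN2, had the same log2 value of 0.02.

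DCP2, which hydrolyses the cap, had the largest rise of the members. It was at 28.3 and 28.6 CPM in shNC and at 38.5 and 35.8 CPM in sh812. The groups stood well apart, and the log2 fold change was 0.38 (SE 0.09; edgeR adjusted p 0.00612). The mean level rose from 28.5 ± 0.273 to 37.1 ± 1.94 CPM (SD, n = 2 per group). DCP2 was called in 14 of 15 other fits, with an adjusted p from 0.000739 to 0.151, the highest being without sh812 replicate 1. DCP2 spans chr5:112976702-113020970 on the plus strand in GENCODE 29, where its exons overlap no other gene.

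Its partners were not called. DCP1A, the activator that binds DCP2, was at 57.6 and 58.6 CPM in shNC and 63.1 and 63.0 CPM in sh812. The groups did not overlap, and the log2 fold change was 0.12 (SE 0.07; edgeR adjusted p 0.323). DCP1B, its paralogue, had a log2 fold change of -0.26 (SE 0.18; edgeR adjusted p 0.385). EDC4, the decapping scaffold, and EDC3, an enhancer of decapping, were at 0.09 and -0.003 on the log2 scale.

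LSM proteins form rings of 7: LSM1 to LSM7 in the cytoplasm, which promotes decapping, and LSM2 to LSM8 in the nucleus, which binds U6 small nuclear RNA. The 6 subunits that both rings share, LSM2 to LSM7, were higher in both sh812 libraries than in both shNC libraries, and 4 of the 6 were called. Of all genes tested, 26.2% had both sh812 libraries above both shNC libraries, and 5.43% were called higher. With the length and GC trends described below removed, 2 of the 6 were called. This set of 6 was singled out after its values were seen. LSM7 was at 37.8 and 37.9 CPM in shNC and 50.3 and 46.7 CPM in sh812. Its groups did not overlap, and its log2 fold change was 0.36 (SE 0.08; edgeR adjusted p 0.00549). LSM5 was at 60.5 and 63.2 CPM in shNC and 79.0 and 72.2 CPM in sh812. It rose by 0.29 (SE 0.07; edgeR adjusted p 0.011) on the log2 scale, with groups that did not overlap. LSM2 was at 52.7 and 60.8 CPM in shNC and 74.1 and 64.5 CPM in sh812. Here the gap between the nearest libraries of the 2 groups was smaller than the gap within either group. Its log2 fold change was 0.29 (SE 0.08; edgeR adjusted p 0.0243), with an adjusted p of 0.107 without shNC replicate 1.

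LSM3 was at 125 and 133 CPM in shNC and 147 and 149 CPM in sh812. Its log2 fold change was 0.20 (SE 0.06; edgeR adjusted p 0.0395), and the adjusted p was 0.103 with library size alone, 0.087 without shNC replicate 1 and 0.323 without sh812 replicate 2. LSM4 was at 134 and 142 CPM in shNC and 158 and 152 CPM in sh812. The groups did not overlap, and its log2 fold change of 0.17 (SE 0.06) had an adjusted p of 0.0811 in edgeR. LSM6 was at 0.19 on the log2 scale (SE 0.10; edgeR adjusted p 0.245). The subunits that tell the rings apart were not called: LSM1 had a log2 fold change of 0.21 (SE 0.10; edgeR adjusted p 0.211) and LSM8 one of 0.01 (SE 0.09; edgeR adjusted p 0.981). The members outside these rings, LSM10 and LSM11 of the U7 particle that matures histone mRNA, LSM12, and the P-body proteins LSM14A and LSM14B, lay between -0.12 and 0.17, and 0 of these 5 were called in edgeR, DESeq2 or limma-voom, with 1 at an unadjusted p under 0.05. The median of all 13 LSM genes was 0.17.

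**Figure D2:**
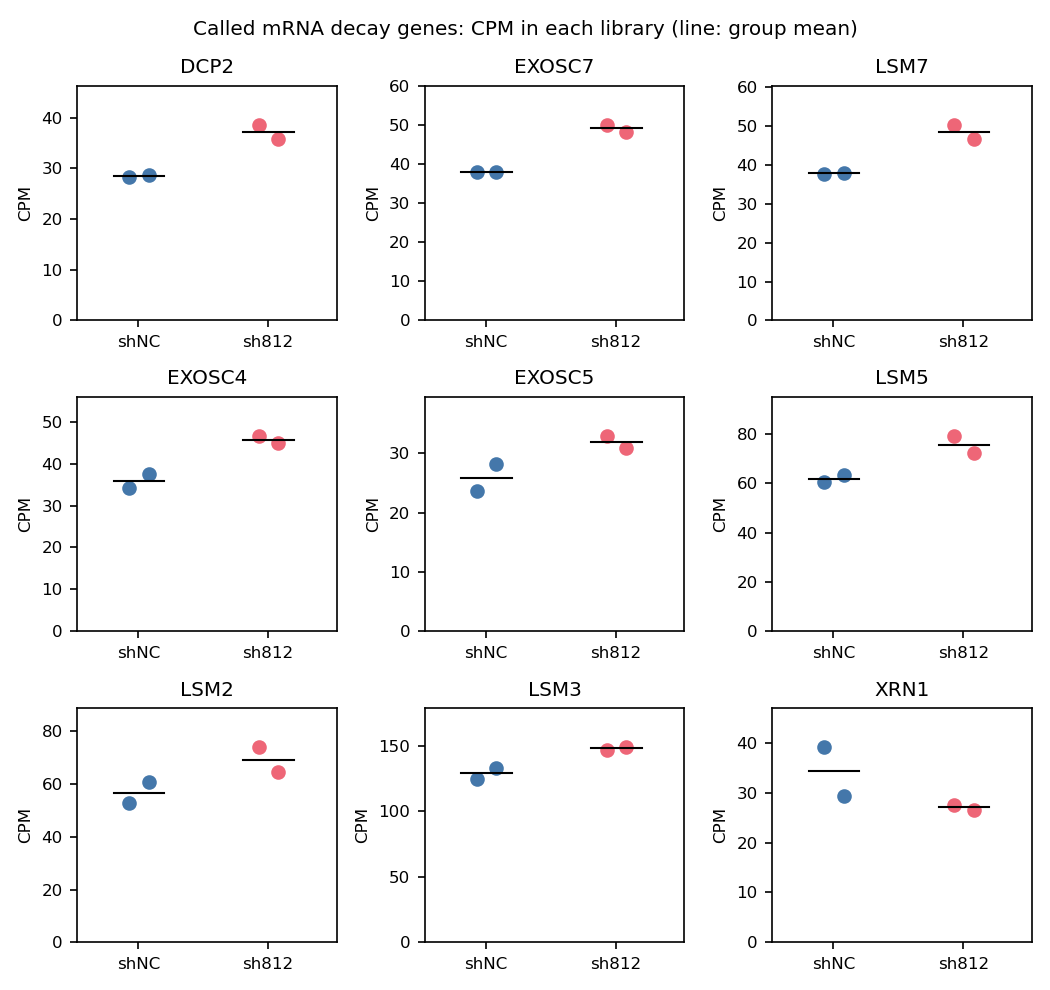
CPM of the 9 called members in each library, with shNC and sh812 libraries as points and a line at each group mean (n = 2, axes start at 0). DCP2, EXOSC7 and LSM7 have shNC libraries that nearly coincide, while the shNC libraries of XRN1, at 39.1 and 29.3 CPM, are farther apart than the lower of them is from the sh812 libraries.

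Of the XRN exonucleases, XRN1 fell and XRN2 was not called, and the difference between them was not tested. XRN1, which degrades decapped mRNA in the cytoplasm, was at 39.1 and 29.3 CPM in shNC and 27.5 and 26.6 CPM in sh812. The groups did not overlap, but shNC replicate 1 stood apart from the other 3 libraries. The log2 fold change was -0.34 (SE 0.11; edgeR adjusted p 0.0404). Without shNC replicate 1 it was -0.12, with an adjusted p of 0.595, and DESeq2 gave an adjusted p of 0.0792. XRN2, the nuclear paralogue that acts in transcription termination, was at 207.8 and 206.6 CPM in shNC and 208.0 and 209.8 CPM in sh812. Its groups differed by 0.01 on the log2 scale (SE 0.06; edgeR adjusted p 0.933).

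The exosome has a barrel of 6 RNase PH-like proteins, EXOSC4 to EXOSC9, capped by EXOSC1, EXOSC2 and EXOSC3, and the nuclear form adds the nuclease EXOSC10. The split into barrel and cap was made after the values were seen. Of the 6 barrel genes 3 were called higher, and of the other 4 EXOSC genes none was called, where 5.43% of all genes tested were called higher. EXOSC7 was at 38.1 CPM in both shNC libraries and at 50.0 and 48.4 CPM in sh812. It had a log2 fold change of 0.37 (SE 0.08; edgeR adjusted p 0.00379), the lowest adjusted p of the 54. EXOSC4 was at 34.1 and 37.6 CPM in shNC and 46.5 and 44.8 CPM in sh812. Its groups did not overlap, and its log2 fold change was 0.35 (SE 0.08; edgeR adjusted p 0.00768). EXOSC5 was at 23.6 and 28.2 CPM in shNC and 32.9 and 30.9 CPM in sh812. The gap between the nearest EXOSC5 libraries of the 2 groups was smaller than the gap between the shNC libraries. Its log2 fold change of 0.30 (SE 0.10) had an adjusted p of 0.0499 in edgeR, at the edge of the threshold, and 0.0502 with RLE size factors and 0.0834 with DESeq2. Without shNC replicate 1 the log2 fold change was 0.18.

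EXOSC6, another barrel gene, had a log2 fold change of 0.22 (SE 0.09; edgeR adjusted p 0.132). EXOSC8 and EXOSC9 were at -0.04 and -0.05 on the log2 scale. The cap genes EXOSC1 and EXOSC3 were at 0.01 and 0.0004, and EXOSC2 at 0.17 (adjusted p = 0.199 in edgeR). EXOSC10 was at 72.0 and 68.5 CPM in shNC and 71.0 and 66.1 CPM in sh812. These groups overlapped, with a log2 fold change of -0.04 (SE 0.07; edgeR adjusted p 0.82).

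None of the nonsense-mediated decay genes was called, and 2 missed the threshold narrowly on the low side. UPF1, the helicase at the centre of the pathway, was at 201.9 and 194 CPM in shNC and 214 and 205 CPM in sh812. Its log2 fold change was 0.08 (SE 0.06; edgeR adjusted p 0.438). SMG6, the endonuclease that cuts near the stop codon, was at 28.5 and 27.2 CPM in shNC and 22.7 and 23.6 CPM in sh812. The groups did not overlap, and the log2 fold change was -0.27 (SE 0.10; edgeR adjusted p 0.0756). It had an adjusted p of 0.0433 with library size alone and of 0.0446 without shNC replicate 2. SMG5, an adaptor that binds phosphorylated UPF1, was at 175 and 187 CPM in shNC and 162 and 159 CPM in sh812, with a log2 fold change of -0.18 (SE 0.06; edgeR adjusted p 0.0644). SMG5 was called lower with library size alone and had an edgeR adjusted p of 0.149 with those trends removed.

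SMG1, the kinase that phosphorylates UPF1, was at 107 and 84.2 CPM in shNC and 88.4 and 82.7 CPM in sh812. The groups overlapped, and shNC replicate 1 was again the high library (log2 fold change -0.16, adjusted p = 0.226 in edgeR). The table also lists 7 SMG1 pseudogenes, near-identical copies whose counts summed to 5% to 6.95% of those of SMG1, so its count is uncertain. For the 9 other members with listed pseudogene rows, these summed to at most 1.27%. SMG9, a regulator of SMG1, had a log2 fold change of 0.22 (SE 0.09; edgeR adjusted p 0.134). UPF3B, one of the UPF3 paralogues that link UPF2 to exon junctions, differed most between control libraries, at 27.8 and 18.5 CPM in shNC and 24.7 and 22.3 CPM in sh812. SMG8, UPF2 and UPF3A lay between -0.11 and 0.01 on the log2 scale.

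The difference between the groups varied with the length of the gene. Across the 54 members, exon length and log2 fold change had a Spearman correlation of -0.46. The same correlation was -0.45 between the control libraries, as shNC replicate 2 over replicate 1, and 0.16 between the sh812 libraries. Over the 16627 tested genes with a gene model the values were -0.22, -0.18 and 0.034. These describe genes that share the same 4 libraries. The members were split at their median exon length of 3783.5 bases after their fold changes were seen. Of the 27 shorter members, 6 were called higher and 0 lower, and of the 27 at or above it 2 were called higher and 1 lower. Among all tested genes in the same length classes, 692 of 9596 were called higher and 237 lower in the short class, and 219 of 7031 higher and 673 lower in the long class.

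Each library's trend on exon length and GC content was therefore removed in a further fit. It called 8 members higher and 0 lower, where 10.3% of all genes were called, 5.92% higher and 4.37% lower. Of these 8, DCP2, EXOSC4, EXOSC7, LSM3 and LSM5 were also called without the correction. DCP2, with 8981 bases of exon, had a corrected log2 fold change of 0.48 (adjusted p = 0.000739 in edgeR) and was the long gene that went furthest against the trend. LSM5 was at 0.28 (adjusted p = 0.00886 in edgeR), LSM3 at 0.22 (0.0157), EXOSC7 at 0.26 (0.0243) and EXOSC4 at 0.24 (0.0393). The short genes LSM7 (adjusted p = 0.0552), LSM2 (0.11) and EXOSC5 (0.169) and the long gene XRN1 (0.124) kept their sign and were no longer called in edgeR. CNOT7 at 0.28 (adjusted p = 0.0206), EXOSC6 at 0.28 (0.041) and SMG9 at 0.30 (0.0262) were called in edgeR with the correction. The median of the CCR4-NOT genes was -0.057 without it and 0.029 with it.

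**Figure D3:**
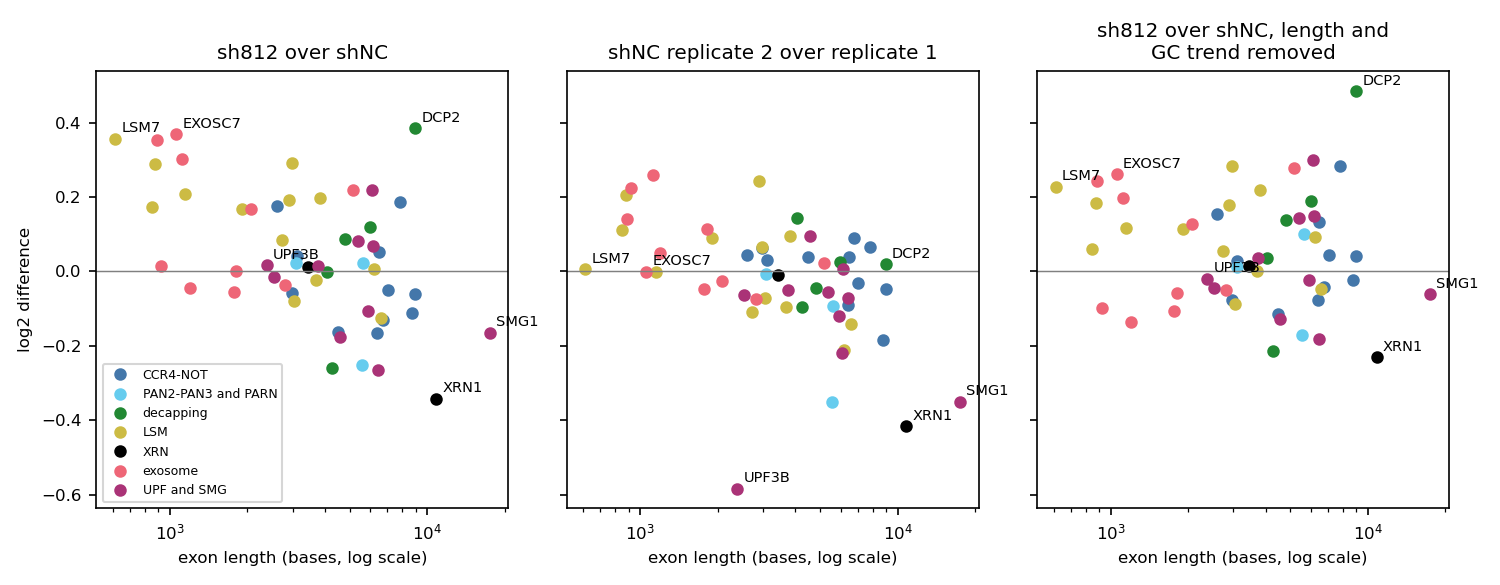
Exon length (bases, log scale) against the log2 difference of each of the 54 members, coloured by complex, for sh812 over shNC (left), for shNC replicate 2 over replicate 1 (middle) and for sh812 over shNC after removal of the length and GC trends (right). The downward slope is present in the left and middle panels, with Spearman values of -0.46 and -0.45, and is -0.12 in the right panel, where DCP2 remains the highest point.

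The members differed more in level than in response. Per kilobase of exon, the mean level in shNC ran from 1.44 CPM per kb for DCP1B to 72.4 CPM per kb for LSM4. On this scale, the 6 shared LSM subunits ran from 8.51 (LSM6) to 72.4 (LSM4) CPM per kb, although they enter the ring in equal numbers. The exosome genes had a median of 24.9 CPM per kb, with EXOSC4 highest at 40.4 and EXOSC6 lowest at 5.30. The decapping genes had a median of 8.52 CPM per kb, and DCP2 was at 3.17 in shNC and 4.14 in sh812. XRN2 was at 60.3 CPM per kb against 3.17 for XRN1, in shNC. These lengths join all exons of the GENCODE 29 basic transcripts, so a gene with long unused exons gets too low a value.

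**Figure D4:**
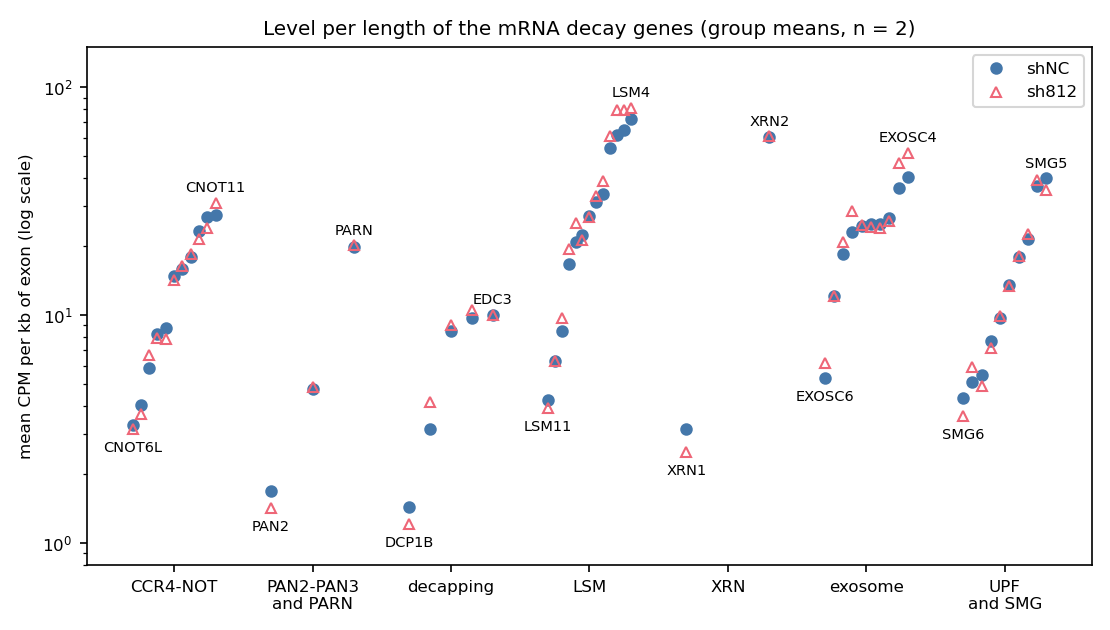
Mean CPM per kilobase of exon of each member (log scale) in shNC (filled circles) and sh812 (open triangles), ordered by level within each complex, with the highest and lowest gene named. Levels span 1.44 to 72.4 CPM per kb in shNC, and the 2 symbols of a gene lie close together compared with the distance between genes.

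Exons of 25 of the 54 members overlap those of another gene in GENCODE 29, on the opposite strand in 21. The library protocol keeps strand, but how the counting treated strand is not given in the sources used here. Of the 9 called members, 5 have such an overlap. LSM3 shares 318 bases with XPC on the opposite strand, which had 934 and 673 counts in shNC and 735 and 777 in sh812. EXOSC7 shares 604 bases with CLEC3B on the same strand, where strand does not tell the genes apart. CLEC3B had 0 counts in all 4 libraries, and how reads in shared bases were counted is not given in the sources used here. EXOSC4 shares bases with a rarely counted antisense gene, and EXOSC5 and LSM7 share 20 and 6 bases with BCKDHA and SPPL2B.

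Other genes of the pathway were taken from lists written from general knowledge. Of 75 partners and recruiters, all tested, 4 rose and 2 fell at an adjusted p under 0.05 in edgeR. Over all genes tested, 10.8% were called, 5.43% as higher and 5.42% as lower. PABPC4, a cytoplasmic poly(A) binding protein, rose from 182 to 213 mean CPM (log2 fold change 0.23, adjusted p = 0.0155). It was 1 of 14 poly(A) binding and deadenylase partners called. MPHOSPH6, a nuclear exosome cofactor, rose from 30.3 to 37.7 mean CPM (0.32, adjusted p = 0.0205), 1 of 15 exosome cofactors, and had an adjusted p of 0.0709 with the length and GC trends removed. DIS3, the main exosome nuclease, had a log2 fold change of -0.03. None of the 10 decapping partners, DDX6 among them, and none of the 15 partners in nonsense-mediated decay was called in edgeR. An unadjusted p under 0.05 was seen in 3 of the former and 2 of the latter, and in 24.8% of all genes tested.

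Of 21 recruiters that bring the deadenylases to chosen mRNAs, 2 were called higher and 2 lower, which is 9.52% each. The shares over all genes tested were 5.43% and 5.42%. TNRC6C, a GW182 protein that couples microRNA complexes to CCR4-NOT, was at 8.83 and 8.28 CPM in shNC and 5.70 and 4.72 CPM in sh812. The groups did not overlap, and the log2 fold change was -0.72 (SE 0.16; edgeR adjusted p 0.00528), larger than that of any of the 54 members. RC3H1, which encodes Roquin-1, rose from 14.6 to 18.6 mean CPM (0.35, adjusted p = 0.0469 in edgeR). HNRNPD, an AU-rich element binder, rose from 395 to 455 mean CPM (0.20, adjusted p = 0.0252 in edgeR). Of the 93 listed genes, known decay targets included, 8 were called with all libraries, 1 without sh812 replicate 1, 0 without sh812 replicate 2, 15 without shNC replicate 1 and 25 without shNC replicate 2. Over all genes, the number called in either fit without an sh812 library was also lower, at the shares given above. With all libraries, the 8 called were 8.6% of the list, where 10.8% of all genes tested were called.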

How the data were processed

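Poly(A) RNA of 4 PC3 libraries was measured by strand-preserving RNA sequencing. The authors deposited raw read counts per gene, whole numbers with Ensembl identifiers. The submitters' processing notes name fastp, STAR 2.7.1a, featureCounts, DESeq2 and hg38, without their roles; the annotation release and strand setting are not given in the sources used here.

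Here, edgeR 4.0.16 (R 4.3.3; filterByExpr, TMM, glmQLFit, glmQLFTest, no covariate) was fitted to all genes, with Benjamini-Hochberg adjustment and calls at an adjusted p under 0.05, two-sided. The SE was derived from the F statistic. Alternatives were other scalings and filters, DESeq2 1.42.0, limma-voom (limma 3.58.1), the replicate number as a block, each library left out, and removal of each library's lowess trend (span 0.3) on exon length and GC content as an offset. The form of that trend was set after the files were seen. DESeq2 was first run on all rows with a count, then on the edgeR-filtered genes so that the tool alone differed; both are reported. Lengths, positions and overlaps came from GENCODE 29 (GRCh38), matched by identifier. The methods were tested on simulated counts. Replicate libraries differed by more than sampling noise (chi-square per gene 8.43 in shNC and 4.51 in sh812). Values in every library are given for called members and, in each complex, for the most abundant member and the one with the largest change; any further member was named with its values known. A few genes of the lists are counted in the totals and not reported singly here. The members and lists were chosen with earlier results of these data known.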

Additional observations from a re-analysis of the deposited data

How the results depend on the processing

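With all 4 libraries, 8 members were called higher and 1 lower. With library size alone these were 5 and 4. The median log2 fold change of the members became -0.029, and that of all genes tested was -0.050 in this fit. The median of the PAN2, PAN3 and PARN genes became -0.023, PARN itself -0.022 and XRN2 -0.033. The TMM factors left out there were 1.025 and 1.006 in shNC and 0.983 and 0.987 in sh812. In that fit 561 of all genes were called higher and 1328 lower, and 5 of the other decay genes were called. A mean CPM of at least 1 gave 2 members lower and DESeq2 gave 0, as did DESeq2 on all rows with a count. The latter called 585 genes lower of the 11883 to which it gave an adjusted p, against 910 of 16802 in edgeR. With the length and GC trends removed, 0 members were called lower, the members' median was 0.039 (0.038 with the replicate block), the CCR4-NOT median changed sign to 0.029 (also 0.029 with the block), and 13 of the 93 other decay genes were called. That fit called 10.3% of all genes, against 10.8% without the correction. The median of the UPF and SMG genes, -0.00012, was 0.0037 with RLE factors, 0.00044 with upper quartile factors, 0.0038 with DESeq2 and 0.0051 with DESeq2 on all rows. Leaving out 1 library gave 0 to 12 members higher, 0 to 4 lower, 261 to 1703 of all genes higher and 326 to 1549 lower, 0 to 25 other decay genes called, a members' median of 0.020 to 0.031 and a METTL3 value of -2.52 to -2.33. Among the medians and the members called, most abundant or most changed in their complex, it changed the sign of 4 values. These were the CCR4-NOT median (-0.103 to 0.0030, above 0 without sh812 replicate 1), the PAN2, PAN3 and PARN median (-0.017 to 0.027, below 0 without shNC replicate 2), the UPF and SMG median (-0.081 to 0.031, above 0 without shNC replicate 1) and EXOSC10 (-0.088 to 0.015, above 0 without shNC replicate 1, at 0.0018, or sh812 replicate 2). Other members also changed sign across the 15 other fits, among them UPF3B at -0.23 to 0.34 and SMG1 at -0.32 to 0.023. For all of these the cause was not tested.

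Both groups have replicates numbered 1 and 2, and no label says what a number marks. Across genes, deviations from the group means in libraries of the same number had a correlation of 0.016. With the replicate block 8 members were called higher and 1 lower, the members' median was 0.020 and METTL3 -2.42. The block changed no call among the members, and 12 of the 93 other decay genes were called against 8. Calls over all genes also rose, to 1003 higher and 998 lower from 912 and 910. With 2 libraries per group, small changes can be missed.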

Other observations

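Natural targets of nonsense-mediated decay were looked at as a further list of 18 genes. In sh812, 2 were called higher and 0 lower, against 10.8% of all genes tested called in either direction. With the length and GC trends removed, 2 were called higher (SRSF3 and BAG1) and 2 lower, CDKN1A at -0.27 and UPP1 at -0.20 on the log2 scale (edgeR adjusted p = 0.0200 and 0.0392). GAS5, a noncoding RNA that hosts small nucleolar RNAs, was at 53.8 and 51.0 CPM in shNC and 62.4 and 61.4 CPM in sh812 (log2 fold change 0.24, adjusted p = 0.0359 in edgeR, 0.131 with the length and GC trends removed). SRSF3, a splicing factor with a poison exon, was at 374 and 409 CPM in shNC and 449 and 445 CPM in sh812 (0.19, adjusted p = 0.0351 in edgeR). The list's median log2 fold change was 0.047, with 9 genes fitted above 0 and 9 below.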
